A study of Homo sapiens with 16 samples.

Results

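The genes of the Wnt, bone morphogenetic protein (BMP) and transforming growth factor beta (TGF-beta) families were followed through 5 knockdowns of MRG proteins and TIP60 complex subunits. Members were all genes of the deposited expression table whose symbol begins with WNT, FZD, LRP, DKK, KREMEN, SFRP, AXIN, BMP or SMAD and a digit, or with TCF7, BMPR, TGFB, ACVR, GREM and a digit, or INHB. The rule took 56 of 8808 genes and used no measured value, but the authors headed the table as holding significant differentially expressed genes, so each member had already passed a selection on these libraries. By role there were 8 Wnt ligands, 6 Frizzled receptors, 6 Wnt antagonists, 2 intracellular Wnt proteins, 4 BMP ligands, 4 TGF-beta and activin ligands, 7 BMP and TGF-beta receptors and 5 SMADs. These 42 are the ligands, receptors, antagonists and intracellular proteins of the pathways. The other 14, taken in by their names, are 6 genes with LRP names, 4 genes such as TGFBI, and 4 antisense RNAs.

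Poly(A) RNA was sequenced from U2OS, an established human osteosarcoma cell line, after transfection of small interfering RNA (siRNA). The control group received siRNA against luciferase (siLuc), and the others received siMRG15 (against gene MORF4L1), siMRGX (gene MORF4L2), siMRGBP, siBRD8 or siTIP60 (gene KAT5), with 2 libraries in each of the 6 groups. All groups were grown in DMEM with 10% FBS, and the labels give no time after transfection. Per the labels, siMRG15, siMRGX, siMRGBP and siTIP60 were pools of siRNAs and siBRD8 was given by a single catalogue number. All 12 libraries come from the same line, and the labels do not state that the replicates are independent cultures. The p-values therefore reflect variation among these libraries only, part of which may be technical. MRG15 and MRGX are paralogous chromatin proteins of the TIP60 histone acetyltransferase complex and of histone deacetylase complexes. TIP60 is the acetyltransferase of that complex, which also contains MRGBP and BRD8.

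The effective library sizes were 57255783 to 110402095 reads, of which 30.4% to 38.2% fell in the 8808 genes. The gene each siRNA targets was lower in its own knockdown, by 1.99 (BRD8) to 4.36 (MORF4L1) on the log2 scale. Counting the own target, all 5 target genes were called lower in siTIP60, 4 in siMRGBP, 3 each in siMRG15 and siBRD8, and 1 in siMRGX. The siLuc libraries had the highest chi-square between replicates, 52.6 per degree of freedom, a measure that depends on depth, and all 5 comparisons with siLuc share them. By median absolute log2 difference over all genes, siMRGBP replicates differed by 0.127 and siLuc replicates by 0.122. The labels call the line epithelial. Of 7 epithelial genes 2 (CDH1 and KRT18) were in the table, with a summed level of 78.1 to 93.9 CPM in siLuc, 46.6 to 48.2 in siMRG15, 139 to 150.3 in siMRGX, 103 to 104 in siMRGBP, 114 to 123 in siBRD8 and 149 to 151 in siTIP60. Of 8 osteoblast and mesenchymal genes 6 were in the table, with sums of 4036 to 4831 CPM in siLuc, 3138 to 3204 in siMRG15, 3024 to 3144 in siMRGX, 3794 to 4083 in siMRGBP, 3790 to 3808 in siBRD8 and 4567 to 4889 in siTIP60. Of 10 genes of K562, the other cell line of the series, only HBA1 was in the table, at no more than 0.0297 CPM outside siTIP60 and at 0.0422 and 6.74 CPM in the siTIP60 libraries. The part of these genes in the results was not tested.

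Wnt ligands are secreted lipid-modified proteins that bind Frizzled receptors and the co-receptors LRP5 and LRP6. In the canonical branch this stops the AXIN complex from degrading beta-catenin, which then joins TCF and LEF factors at target genes. BMPs, TGF-betas and activins signal through pairs of type I and type II receptor kinases that phosphorylate receptor SMADs, while SMAD6 and SMAD7 feed back as inhibitors. Both pathways are known for their roles in osteoblast differentiation and bone formation.

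Levels are in CPM (library-scaled counts, as deposited by the authors), and each pair of values in a group is replicate 1 then replicate 2. Differences are of log2(CPM + 1), which understates the change of genes at low levels, with ± the standard error from limma, fitted to all 12 libraries. A gene was called when its p, adjusted by Benjamini-Hochberg over the 8808 genes, was under 0.05. CPM is not divided by gene length, so levels of different genes are not compared. No filter on low values was applied, so all 56 members were tested, 16 of them with a mean under 5 CPM. In bulk RNA, fewer cells with a transcript and less of it per cell cannot be told apart.

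In siMRG15, 40 of the 56 members were called, 12 higher and 28 lower, where 69.3% of all genes in the table were called, 33.5% higher and 35.8% lower. The total is near the share of the table. Lower members made up 50% and higher members 21.4%. The median difference of the members was -0.18 against -0.03 over all genes. With TMM factors the share of higher genes among the table's calls went from 48.4% to 52.7%, and the members' split became 15 higher and 24 lower. In siMRGX, 38 members were called, 9 higher and 29 lower, where the table had 68.2% called, 28.2% higher and 40% lower. The medians were -0.22 and -0.10. The siMRGX balance also depends on scaling: with median-of-ratios factors, which move the median of all genes by 0.11, the share of higher genes among the table's calls went from 41.4% to 51.9%, and the members' split became 14 higher and 25 lower.

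In siMRGBP, 40 members were called, 18 higher and 22 lower, beside 65% of the table, 32.1% higher and 32.9% lower. In siBRD8, 36 were called, 15 higher and 21 lower, beside 54.2% of the table, 28.3% higher and 25.9% lower. In siTIP60, 47 were called, 22 higher and 25 lower, beside 78.8% of the table, 41.1% higher and 37.7% lower. As shares of the 56 members, the lower ones made up 39.3% in siMRGBP, 37.5% in siBRD8 and 44.6% in siTIP60, and the higher ones 32.1%, 26.8% and 39.3%. Medians of members and of all genes were -0.08 and -0.02 in siMRGBP, -0.02 and 0.01 in siBRD8, and -0.11 and 0.05 in siTIP60.

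**Figure D1:**
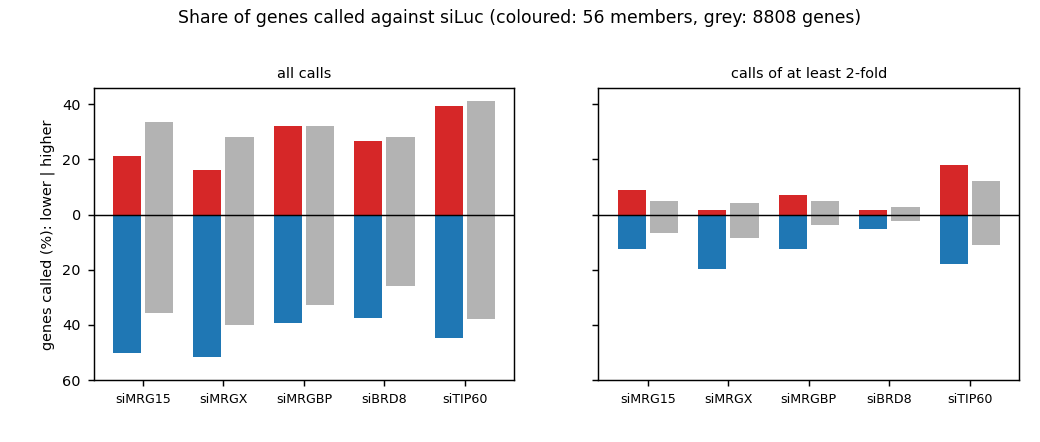
Share of the 56 members (coloured) and of the 8808 genes (grey) called against siLuc, in percent, higher genes above 0 and lower genes below, for all calls (left) and calls of at least 2-fold (right). In siMRG15 and siMRGX the lower members, at 50% and 51.8%, stand beside 35.8% and 40% of the table.

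Changes of at least 2-fold on the log2(CPM + 1) scale were fewer. They numbered 5 higher and 7 lower members in siMRG15 (8.93% and 12.5% of the members), beside 5.1% and 6.8% of the table. In siMRGX there were 1 and 11 (1.79% and 19.6%), beside 4.23% and 8.32%, and all 11 lower ones were among the 42. In siMRGBP there were 4 and 7 (7.14% and 12.5%), beside 5% and 3.71%. In siBRD8 there were 1 and 3 (1.79% and 5.36%), beside 2.72% and 2.3%. The siTIP60 libraries had 10 (17.9%) in each direction, beside 12.3% higher and 11.1% lower genes in the table.

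**Figure D2:**
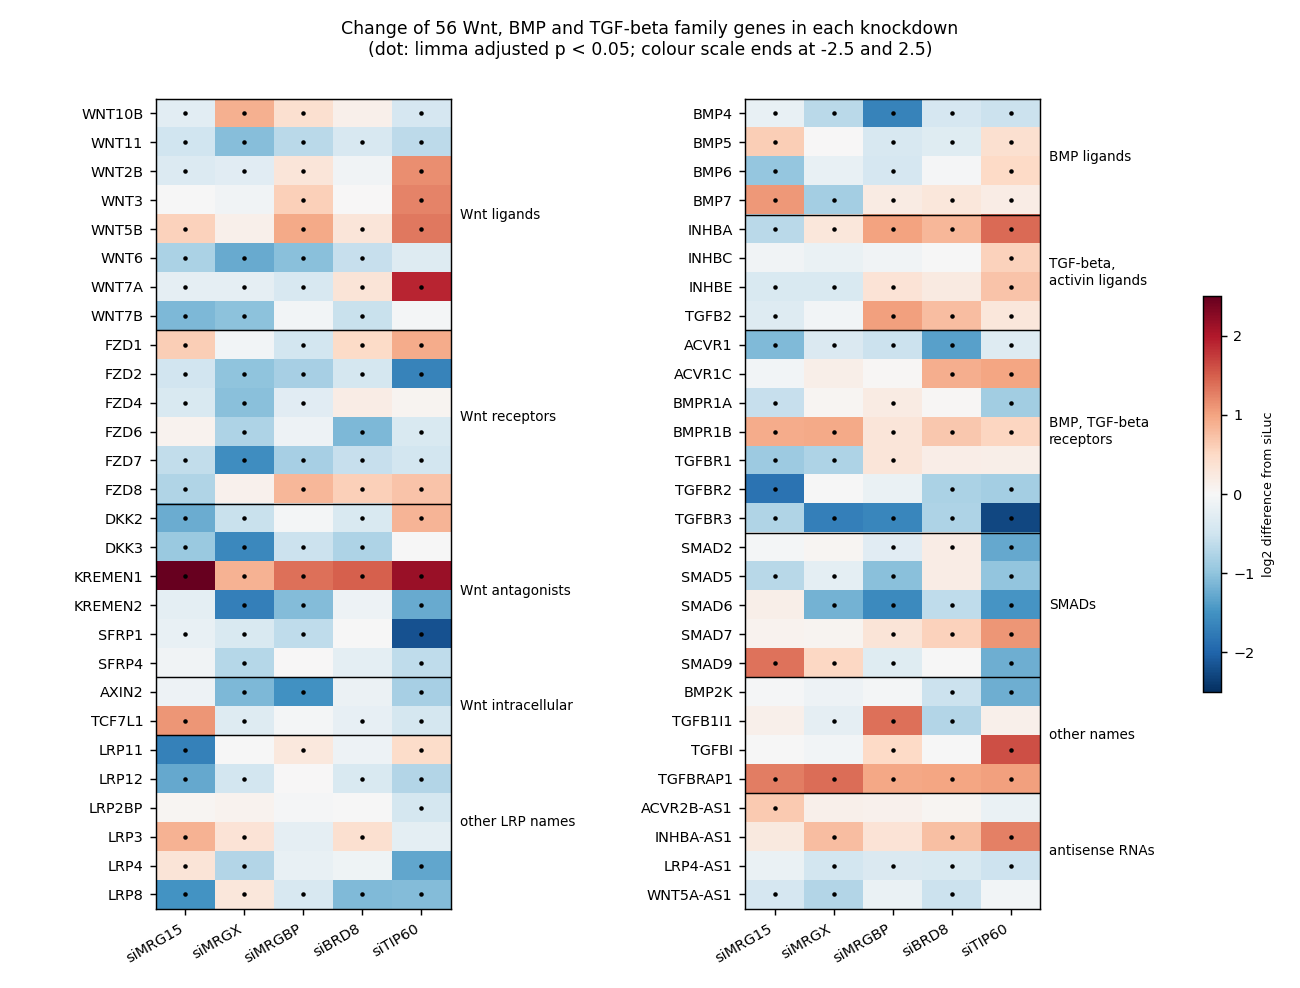
Difference of each member from siLuc on the log2(CPM + 1) scale in the 5 knockdowns (columns), with members (rows) grouped by role and a dot for limma's adjusted p under 0.05; the colour scale ends at -2.5 and 2.5. KREMEN1 has the largest rise, 2.79 in siMRG15, and TGFBR3 the largest fall, -2.27 in siTIP60.

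The members that moved in the same direction in every knockdown came from different levels of the pathways. ACVR1, BMP4, FZD2, FZD7, TGFBR3 and WNT11 were lower in all 5 knockdowns, and BMPR1B, KREMEN1 and TGFBRAP1 were higher in all 5. Of the 8808 genes, 4.69% were lower and 4.6% were higher in all 5. The comparisons share the siLuc libraries, so nothing is read from these 2 counts, and each comparison's own values are given below.

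TGFBR3 encodes betaglycan, a co-receptor that presents TGF-beta2 and also binds inhibins. Its level was 26.2 and 24.3 CPM in siLuc, 14.4 and 14.9 in siMRG15, 7.05 and 6.97 in siMRGX, 7.95 and 6.96 in siMRGBP, 13.9 and 14.8 in siBRD8, and 4.21 and 4.64 in siTIP60. Every knockdown library lay below both siLuc libraries, and siTIP60 was lowest. The differences were -0.74 ± 0.08 in siMRG15, -1.71 ± 0.08 in siMRGX, -1.64 ± 0.08 in siMRGBP, -0.77 ± 0.08 in siBRD8 and -2.27 ± 0.08 in siTIP60, with adjusted p from 9.03e-11 to 5.24e-06 in limma. Between knockdowns, siBRD8 stood 1.502 ± 0.08 above siTIP60 (adjusted p = 3.48e-09).

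ACVR1 encodes ALK2, a type I receptor for BMPs. It stood at 55.6 and 59.8 CPM in siLuc, 26.7 and 25.8 in siMRG15, 45.4 and 43.3 in siMRGX, 37.5 and 41.9 in siMRGBP, 21.2 and 22.6 in siBRD8, and 45.1 and 46.2 in siTIP60. No knockdown library reached the siLuc range. The fall was largest in siBRD8, at 62.1% (difference -1.36 ± 0.07, adjusted p = 1.84e-08), and 54.5% in siMRG15 (-1.11 ± 0.07, adjusted p = 2.72e-08). It was smaller in siMRGBP (-0.53 ± 0.07), siMRGX (-0.37 ± 0.07) and siTIP60 (-0.33 ± 0.07), with adjusted p up to 0.000786. With median-of-ratios factors the siMRGX difference was -0.21, still called.

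BMP4, a ligand that drives osteoblast differentiation, was at 75.7 and 70.9 CPM in siLuc and at 20.4 and 24.7 in siMRGBP. The other knockdowns lay between these, at 63.9 and 64.6 in siMRG15, 45.7 and 46.0 in siMRGX, 54.1 and 55.0 in siBRD8, and 50.8 and 49.0 in siTIP60. The difference was -1.66 ± 0.08 in siMRGBP (adjusted p = 3.39e-09), -0.66 ± 0.08 in siMRGX, -0.55 ± 0.08 in siTIP60 and -0.42 ± 0.08 in siBRD8. In siMRG15 it was -0.19 ± 0.08 (adjusted p = 0.0478), and this call did not hold with TMM factors (-0.12, adjusted p = 0.163) or without siLuc replicate 1 (adjusted p = 0.182). The adjusted p ranged from 0.0583 to 0.182 over the alternatives in which the call was lost.

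FZD2 and FZD7 encode Frizzled receptors. FZD2 was at 60.5 and 47.3 CPM in siLuc, 36.6 and 39.8 in siMRG15, 26.6 and 25.7 in siMRGX, 28.4 and 31.1 in siMRGBP, 38.0 and 40.1 in siBRD8, and 16.0 and 16.1 in siTIP60. All knockdown libraries lay below siLuc, whose own 2 values were far apart. Its differences ran from -0.45 ± 0.10 in siBRD8 (adjusted p = 0.0018) to -1.67 ± 0.10 in siTIP60 (adjusted p = 5.54e-09). Without siLuc replicate 1 they were -0.30 in siMRG15 and -0.27 in siBRD8, against -0.48 and -0.45 with it, and both were still called. FZD7 was at 39.5 CPM in both siLuc libraries, 25.7 and 25.5 in siMRG15, 12.6 and 13.0 in siMRGX, 20.1 and 23.7 in siMRGBP, 25.3 and 27.3 in siBRD8, and 29.9 and 26.8 in siTIP60. It was lowest in siMRGX, at -1.55 ± 0.08 (adjusted p = 5.95e-09), and its other differences were -0.47 to -0.83.

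WNT11, a ligand of the beta-catenin-independent branch, was low throughout, at 1.81 and 1.18 CPM in siLuc. In the knockdowns it was at 0.713 and 0.811 CPM (siMRG15), 0.287 and 0.0979 (siMRGX), 0.349 and 0.772 (siMRGBP), 0.960 and 0.804 (siBRD8), and 0.687 and 0.464 (siTIP60). No knockdown library reached the lower siLuc value. The difference was -1.06 ± 0.15 in siMRGX (adjusted p = 3.45e-05), -0.68 ± 0.15 in siMRGBP and -0.65 ± 0.15 in siTIP60. The calls in siMRG15 (-0.49 ± 0.15, adjusted p = 0.0101) and siBRD8 (-0.40 ± 0.15, adjusted p = 0.0382) were lost without siLuc replicate 1, where the differences were -0.31 (adjusted p = 0.0936) and -0.21 (adjusted p = 0.268). On the recovered reads, edgeR gave WNT11 an adjusted p of 0.0764 in siBRD8.

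KREMEN1 encodes a receptor for Dickkopf proteins that helps them clear LRP6 from the surface. Its level was 3.19 and 3.33 CPM in siLuc, 28.5 and 28.2 in siMRG15, 6.11 and 7.38 in siMRGX, 8.79 and 11.3 in siMRGBP, 10.8 and 11.1 in siBRD8, and 17.1 and 18.8 in siTIP60. Every knockdown library was above siLuc and siMRG15 stood apart from all others. The MRG15 and MRGX knockdowns differed in KREMEN1 by 1.93 ± 0.11 (adjusted p = 4.97e-09), and siMRG15 and siBRD8 by 1.30 ± 0.11 (adjusted p = 3.07e-07). On the siLuc scale the 5 differences were 2.79, 0.86, 1.37, 1.49 and 2.15 in the order above, each ± 0.11.

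TGFBRAP1 encodes a protein named for binding TGF-beta receptors, which also works in endosomal tethering. It was at 62.0 and 60.2 CPM in siLuc, 147 and 150.2 in siMRG15, 161 and 164 in siMRGX, 116 and 124 in siMRGBP, 124 and 119 in siBRD8, and 124 and 126 in siTIP60. All 10 knockdown libraries lay far above siLuc, and the differences kept within 0.96 to 1.39, each ± 0.06 (adjusted p from 9.86e-10 to 4.26e-08). BMPR1B, the type I BMP receptor ALK6, was at 6.63 and 7.65 CPM in siLuc, 14.2 and 14.7 in siMRG15, 15.2 and 14.1 in siMRGX, 8.82 and 9.09 in siMRGBP, 11.8 and 12.2 in siBRD8, and 10.9 and 10.6 in siTIP60. No group overlapped siLuc. Differences were 0.95 ± 0.08 in siMRGX, 0.93 in siMRG15, 0.68 in siBRD8, 0.53 in siTIP60 and 0.29 in siMRGBP. The siMRGBP call (adjusted p = 0.00535) was lost without siLuc replicate 1 (difference 0.20) and with the compared groups alone (limma, adjusted p = 0.082).

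**Figure D3:**
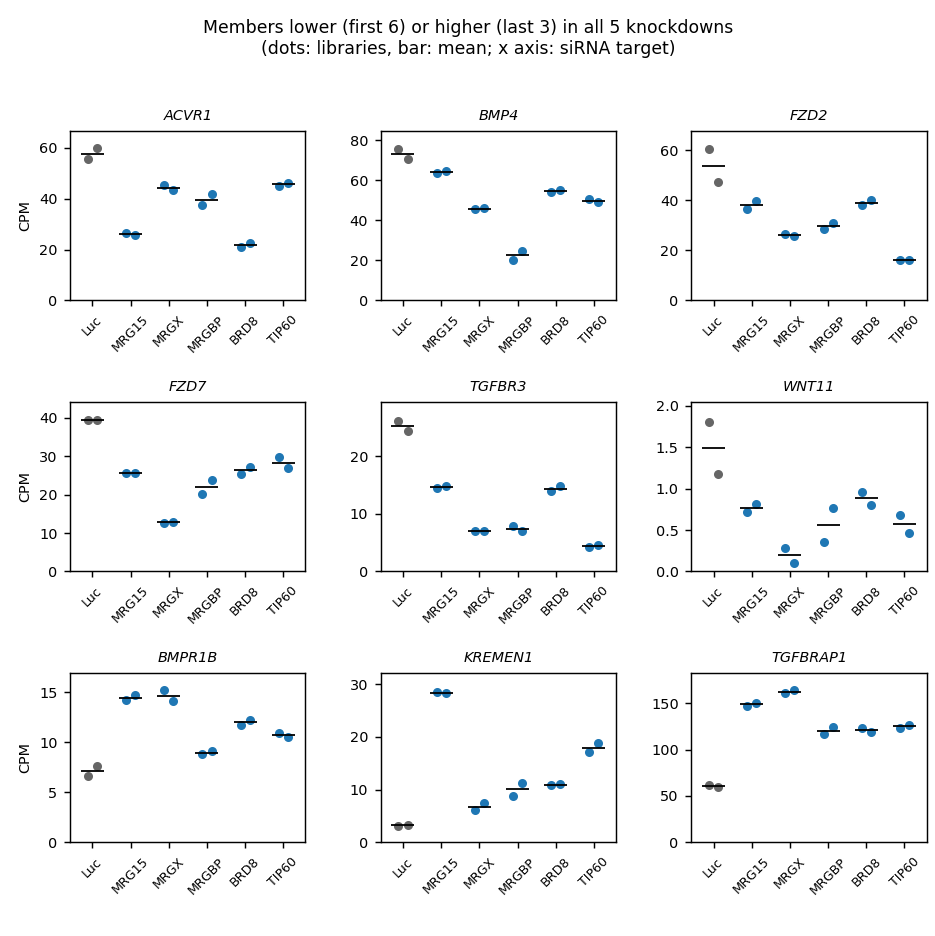
Level (CPM, linear axes from 0) of the 6 members lower and the 3 higher in all 5 knockdowns, by siRNA target; dots are libraries and bars the mean of 2. KREMEN1 is highest in siMRG15 at 28.5 and 28.2 CPM, and TGFBR3 lowest in siTIP60 at 4.21 and 4.64 CPM.

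Of the 56 members 38 had a promoter window in the RefSeq table of GRCh38.p14, 62 windows in all, and of the 9 genes just described ACVR1, BMP4, BMPR1B, TGFBR3 and TGFBRAP1 had one. The 250 bases before the start are shown for TGFBR3, which had the largest fall, for TGFBRAP1, whose rise varied least between knockdowns, and for 1 of 3 windows each of ACVR1 and BMP4. The ACVR1 window is the one with the most motif matches, and the BMP4 window is the first of 2 with equally many. All were chosen after the values were seen. Capitals mark the motifs searched on both strands: CACGTG (an E-box), GGCGCC (a GC-rich SMAD element), CAGAC for the SMAD box, read as GTCTG on the other strand, CTTTGAT for the core bound by TCF and LEF factors, read as ATCAAAG, and CCAAT for the box of that name, read as ATTGG. All 4 windows are on the minus strand and are written 5′ to 3′ in the direction of transcription.

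TGFBR3 (chr1:91886152-91886401): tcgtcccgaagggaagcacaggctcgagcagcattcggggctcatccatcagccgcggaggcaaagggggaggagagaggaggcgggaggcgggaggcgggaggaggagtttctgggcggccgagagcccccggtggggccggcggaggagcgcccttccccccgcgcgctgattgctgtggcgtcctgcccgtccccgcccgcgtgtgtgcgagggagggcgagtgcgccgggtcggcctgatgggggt

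TGFBRAP1 (chr2:105329736-105329985): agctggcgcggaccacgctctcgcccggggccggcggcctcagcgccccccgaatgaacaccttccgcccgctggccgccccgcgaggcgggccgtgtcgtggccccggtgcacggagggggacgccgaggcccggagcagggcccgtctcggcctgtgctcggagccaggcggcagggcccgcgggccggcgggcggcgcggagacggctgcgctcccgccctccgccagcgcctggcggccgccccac

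ACVR1 (chr2:157876331-157876580): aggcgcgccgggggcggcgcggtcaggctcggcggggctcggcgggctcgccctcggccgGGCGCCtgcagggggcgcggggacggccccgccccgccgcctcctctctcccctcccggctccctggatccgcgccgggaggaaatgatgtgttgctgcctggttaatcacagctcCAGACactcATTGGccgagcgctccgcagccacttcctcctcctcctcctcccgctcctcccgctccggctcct

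BMP4 (chr14:53953396-53953645): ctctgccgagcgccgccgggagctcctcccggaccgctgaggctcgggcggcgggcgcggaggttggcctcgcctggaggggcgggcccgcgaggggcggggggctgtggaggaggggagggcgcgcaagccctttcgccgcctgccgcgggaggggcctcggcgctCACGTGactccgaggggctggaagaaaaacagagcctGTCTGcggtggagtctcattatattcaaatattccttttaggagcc

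The TGFBR3 and TGFBRAP1 windows held no match. The ACVR1 window held the GC-rich SMAD element, the SMAD box and the CCAAT box, and the BMP4 window held the E-box and the SMAD box. Among all 35116 windows of the table, 6.34% held the E-box, 16.4% the GC-rich SMAD element, 38% the SMAD box, 2.26% the TCF and LEF core and 32% the CCAAT box. The GC content of the 4 windows was 73.6%, 82.4%, 75.2% and 70.4% in the order shown, beside a median of 58% over all windows and 64.4% over the members' windows. A match is only a description of these letters.

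The other Wnt ligand genes split between knockdowns. In siMRG15, 6 of 8 ligands were lower and 1 higher, in siMRGX 5 lower and 1 higher, in siMRGBP 3 and 4, in siBRD8 3 and 2, and in siTIP60 2 and 4. Over all genes, 35.8%, 40%, 32.9%, 25.9% and 37.7% were lower and 33.5%, 28.2%, 32.1%, 28.3% and 41.1% higher in the same order, and the counts by role and list below stand beside the same shares. Some of the lower calls did not hold. In siMRG15 those of WNT7A, WNT10B and WNT11 were lost without siLuc replicate 1. In siMRGX those of WNT2B and WNT7A were lost with median-of-ratios factors. WNT7A, which signals through beta-catenin in several tissues, was at 3.49 and 3.55 CPM in siLuc and at 16.0 and 15.8 in siTIP60. No other group came near this: the highest was siBRD8 at 4.67 and 4.69 CPM, and the lowest siMRGBP at 2.43 and 2.44. The difference was 1.90 ± 0.08 in siTIP60 (adjusted p = 4.13e-10), 0.33 ± 0.08 in siBRD8 and -0.40 ± 0.08 in siMRGBP. Against each of the other 4 knockdowns siTIP60 was higher, by 1.57 ± 0.08 (siBRD8) to 2.30 ± 0.08 (siMRGBP), with adjusted p up to 2.58e-09. The smaller falls of WNT7A in siMRG15 (-0.23) and siMRGX (-0.22) were not called with TMM factors or without either siLuc library.

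**Figure D4:**
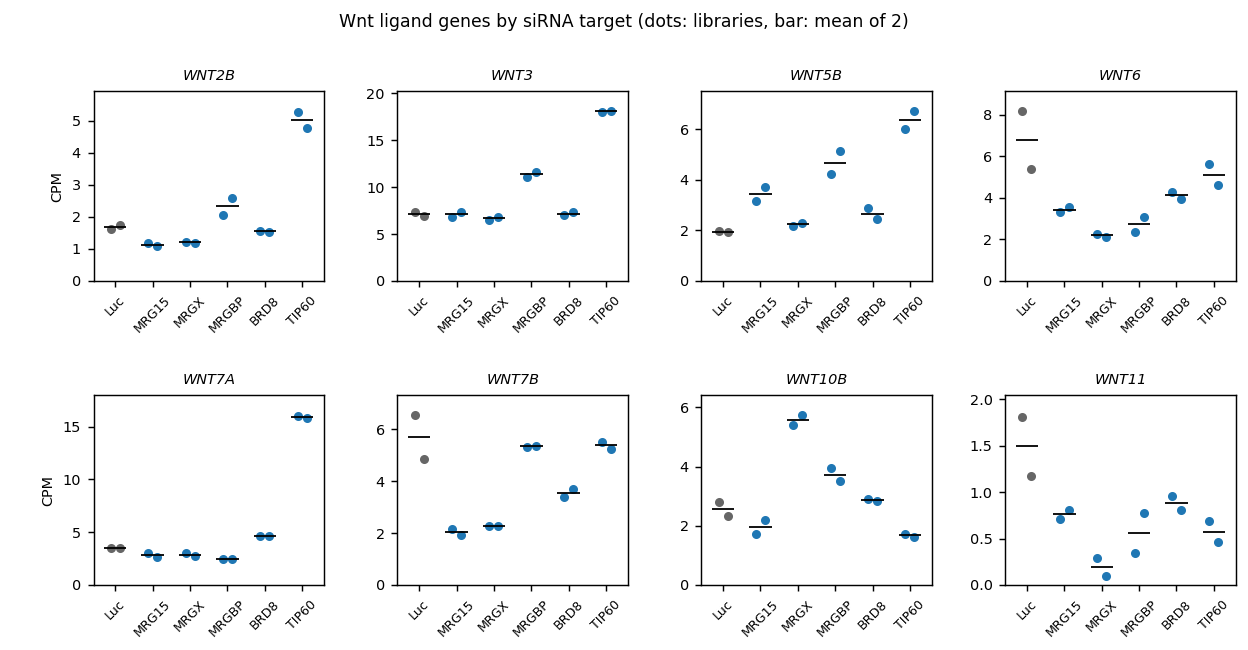
Level (CPM, linear axes from 0) of the 8 Wnt ligand genes by siRNA target; dots are libraries and bars the mean of 2. WNT2B, WNT3, WNT5B and WNT7A are highest in siTIP60, and WNT10B is highest in siMRGX at 5.41 and 5.73 CPM.

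WNT3, a ligand of the canonical branch, was at 7.38 and 6.88 CPM in siLuc, 11.1 and 11.6 in siMRGBP, and 18.0 and 18.2 in siTIP60. In siMRG15, siMRGX and siBRD8 its libraries lay between 6.55 and 7.37 CPM. Only siMRGBP and siTIP60 passed the test, at 0.60 ± 0.07 (adjusted p = 1.17e-05) and 1.23 ± 0.07 (adjusted p = 6.72e-09). WNT2B was at 1.63 and 1.76 CPM in siLuc and 5.28 and 4.78 in siTIP60 (1.16 ± 0.09, adjusted p = 1.32e-07). WNT5B, a non-canonical ligand, was at 1.97 and 1.94 CPM in siLuc, 3.16 and 3.70 in siMRG15, 4.23 and 5.13 in siMRGBP, 2.87 and 2.45 in siBRD8, and 6.01 and 6.71 in siTIP60. It was above siLuc in each of these 4 groups, by 0.31 ± 0.10 (siBRD8) to 1.32 ± 0.10 (siTIP60). The siBRD8 call (adjusted p = 0.0247) was lost in 4 of 13 settings, among them a pseudocount of 5 and without either siLuc library.

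WNT6 and WNT7B were lower in several knockdowns. WNT6 was at 8.16 and 5.38 CPM in siLuc, 3.33 and 3.55 in siMRG15, 2.25 and 2.13 in siMRGX, 2.38 and 3.06 in siMRGBP, 4.29 and 3.94 in siBRD8, and 5.64 and 4.61 in siTIP60. Only siTIP60 overlapped siLuc (-0.33 ± 0.15, adjusted p = 0.0624), and it was called lower with TMM or median-of-ratios factors, by edgeR and by DESeq2. The other 4 were called, from -0.58 ± 0.15 in siBRD8 to -1.26 ± 0.15 in siMRGX (adjusted p = 8.08e-06), and siBRD8 was lost without siLuc replicate 1. WNT7B was at 6.55 and 4.84 CPM in siLuc and at 1.94 to 2.28 in the 4 libraries of siMRG15 and siMRGX, with differences of -1.13 ± 0.11 and -1.02 ± 0.11. Its libraries in siMRGBP and siTIP60 lay within the siLuc range. WNT10B, a ligand known to promote bone formation, moved in opposite directions: it was at 2.79 and 2.35 CPM in siLuc, 5.41 and 5.73 in siMRGX (0.88 ± 0.10, adjusted p = 5.52e-06) and 1.74 and 1.61 in siTIP60 (-0.41 ± 0.10, adjusted p = 0.00227).

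Of the 6 Frizzled receptor genes, 4 were lower and 1 higher in siMRG15, 4 and 0 in siMRGX, 4 and 1 in siMRGBP, and 3 and 2 in both siBRD8 and siTIP60, where 25.9% to 40% of all genes were lower and 28.2% to 41.1% higher. FZD4, a receptor for Norrin and Wnts, was at 16.7 and 16.4 CPM in siLuc and 7.31 and 7.72 in siMRGX (-1.05 ± 0.08, adjusted p = 1.52e-07), and the siMRGX group stood below every other library. FZD6 was at 92.1 and 94.3 CPM in siLuc, 54.7 and 53.3 in siMRGX and 41.2 and 42.9 in siBRD8. Its fall was 54.9% in siBRD8 (-1.13 ± 0.05, adjusted p = 1.27e-08) and 42.1% in siMRGX (-0.78 ± 0.05). FZD1 and FZD8 rose in some groups: FZD1 from 22.6 and 20.6 CPM in siLuc to 42.1 and 41.7 in siTIP60 (0.93 ± 0.09, adjusted p = 6.26e-07), and FZD8 from 5.65 and 7.08 to 13.2 and 11.0 in siMRGBP (0.83 ± 0.10, adjusted p = 1.34e-05). Each also fell in another group, FZD1 in siMRGBP (-0.46 ± 0.09) and FZD8 in siMRG15 (-0.75 ± 0.10).

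Among the Wnt antagonists, only KREMEN1 was higher in more than 1 knockdown. SFRP1, a secreted Frizzled-like protein that binds Wnts, was at 43.5 CPM in both siLuc libraries and at 8.33 and 9.48 in siTIP60. It was at 37.2 and 39.5 CPM in siMRG15, 32.6 and 34.2 in siMRGX, 27.2 and 27.8 in siMRGBP, and 42.3 and 43.5 in siBRD8. The fall in siTIP60 was 79.5% (-2.17 ± 0.07, adjusted p = 4.31e-11), and siTIP60 was lower than each other knockdown by 1.53 ± 0.07 or more on the log2 scale. In siBRD8 the difference was -0.02 (adjusted p = 0.832), and the siMRG15 call (-0.18, adjusted p = 0.0342) was lost with TMM factors and without either siLuc library.

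DKK3, a divergent Dickkopf, was at 197 and 168 CPM in siLuc, 91.8 and 97.2 in siMRG15, 59.4 and 58.9 in siMRGX, 118 and 134 in siMRGBP, 107 and 105 in siBRD8, and 178 and 181 in siTIP60. All groups but siTIP60 lay below siLuc. The difference was largest in siMRGX (-1.60 ± 0.08, adjusted p = 4.08e-09). DKK2, which binds LRP5 and LRP6, was at 2.41 and 2.85 CPM in siLuc, 0.534 and 0.516 in siMRG15 (-1.25 ± 0.11, adjusted p = 5.06e-07) and 5.03 and 6.04 in siTIP60 (0.85 ± 0.11, adjusted p = 1.13e-05). KREMEN2, the paralogue of KREMEN1, was at 15.1 and 10.9 CPM in siLuc, 3.13 and 3.30 in siMRGX, 5.52 and 5.54 in siMRGBP, and 4.90 and 4.59 in siTIP60. Its differences there were -1.72 ± 0.12, -1.08 ± 0.12 and -1.27 ± 0.12 (adjusted p up to 4.04e-06). In siMRG15, where KREMEN1 was highest, KREMEN2 was at 10.6 and 10.8 CPM (-0.24 ± 0.12, adjusted p = 0.0801). SFRP4 was called lower in siMRGX (-0.72 ± 0.12) and siTIP60 (-0.64 ± 0.12), from 2.174 and 1.87 CPM in siLuc.

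AXIN2, a scaffold of the beta-catenin destruction complex and itself a widely used Wnt target gene, was at 19.4 and 16.9 CPM in siLuc. It was at 7.51 and 8.01 CPM in siMRGX, 5.34 and 6.06 in siMRGBP, and 9.80 and 9.70 in siTIP60, but at 16.4 and 16.8 in siMRG15 and 16.2 and 16.5 in siBRD8, which were not called (adjusted p = 0.206 and 0.171). The first 3 groups lay well below the rest. Differences were -1.52 ± 0.08 in siMRGBP (adjusted p = 1.15e-08), -1.13 ± 0.08 in siMRGX (adjusted p = 8.91e-08) and -0.83 ± 0.08 in siTIP60 (adjusted p = 8.51e-07), and siMRGBP was lower than siBRD8 by 1.38 ± 0.08 on the log2 scale (adjusted p = 2.64e-08). TCF7L1, a TCF factor that mostly represses, rose from 12.9 and 11.5 CPM in siLuc to 26.9 and 28.0 in siMRG15 (1.11 ± 0.08, adjusted p = 5.51e-08). It was called lower in siMRGX, siBRD8 and siTIP60, at -0.33, -0.20 and -0.43. The siBRD8 call was lost in 5 of 14 settings, among them the replicate block, without siLuc replicate 1 and without either siBRD8 library.

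Of 16 further Wnt target genes listed, 11 were in the table. In siMRG15, 7 were lower and none higher. In siMRGX 7 were lower and 4 higher, in siMRGBP 6 and 4, in siBRD8 4 and 4, and in siTIP60 5 and 3. Over all genes the shares given above were 33.5% higher and 35.8% lower in siMRG15 and 28.2% and 40% in siMRGX. NKD1, which acts on Dishevelled, had differences of -1.42, -1.72, -1.78, -0.98 and -0.83 in siMRG15, siMRGX, siMRGBP, siBRD8 and siTIP60. RNF43, a ligase that removes Frizzled receptors, had -0.42, -1.58, -1.58, -0.81 and -0.64 in the same order, and all of these were called. NOTUM, which inactivates Wnt ligands, was called lower in siMRGX (-0.88), siMRGBP (-0.81) and siTIP60 (-0.74), and was at -0.13 in siMRG15 and -0.29 in siBRD8. MYC went the other way in siMRGX (1.25) and siBRD8 (1.15), while CCND1, a cyclin gene, was at -1.04 in siMRGX and 0.54 in siBRD8. Of 60 other Wnt components 30 were in the table, with 10 higher and 11 lower in siMRG15, 6 and 16 in siMRGX, 10 and 12 in siMRGBP, 11 and 7 in siBRD8, and 12 and 13 in siTIP60. These lists share NKD1, RNF43, NOTUM and LGR5.

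Besides BMP4, the BMP ligand genes changed in different directions. BMP7, a bone-inducing ligand, was at 14.8 and 13.2 CPM in siLuc, 31.2 and 30.5 in siMRG15 and 7.02 and 7.62 in siMRGX. The paralogue knockdowns thus lay on opposite sides of siLuc, at 1.09 ± 0.08 (adjusted p = 1e-07) and -0.85 ± 0.08 (adjusted p = 9.27e-07), and differed from each other by 1.94 ± 0.08 (adjusted p = 4.25e-10). In the other 3 groups BMP7 was 0.19 to 0.29 above siLuc, and none of these calls held without siLuc replicate 2. BMP6 was at 5.53 and 5.54 CPM in siLuc, 2.03 and 2.71 in siMRG15 (-0.96 ± 0.12, adjusted p = 8.57e-06) and 7.77 and 8.84 in siTIP60 (0.51 ± 0.12, adjusted p = 0.00134). BMP5 was at 57.3 and 60.7 CPM in siLuc, 86.3 and 94.7 in siMRG15 (0.61 ± 0.09) and 76.4 and 80.4 in siTIP60 (0.40 ± 0.09), and was called lower in siMRGBP (-0.40 ± 0.09) and siBRD8 (-0.30 ± 0.09). The siBRD8 call was lost without siLuc replicate 2 and without siBRD8 replicate 1.

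The 4 TGF-beta and activin ligand genes were all higher in siTIP60, where 41.1% of all genes were higher. In siMRGBP 3 were higher, beside 32.1%, and in siBRD8 2, beside 28.3%. In siMRG15 3 were lower, beside 35.8%, and in siMRGX 1 was higher and 1 lower, beside 28.2% and 40%. INHBA, the subunit of activin A, was at 147 CPM in both siLuc libraries, 94.4 and 88.7 in siMRG15, 189 and 169 in siMRGX, 286 and 309 in siMRGBP, 271 and 256 in siBRD8, and 381 and 409 in siTIP60. No group overlapped siLuc, and siMRG15 was the only group below it. Differences were -0.68 ± 0.07 in siMRG15, 0.28 ± 0.07 in siMRGX, 1.01 ± 0.07 in siMRGBP, 0.84 ± 0.07 in siBRD8 and 1.42 ± 0.07 in siTIP60, with adjusted p from 1.85e-09 to 0.00438. The siMRGX call was lost without siMRGX replicate 1. Directly compared, the difference of siMRG15 was -2.098 ± 0.07 from siTIP60 (adjusted p = 4.83e-11) and -1.69 ± 0.07 from siMRGBP.

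TGFB2, a TGF-beta ligand that depends on betaglycan for receptor binding, was at 172 and 170.1 CPM in siLuc, 328 and 377 in siMRGBP and 298 and 289 in siBRD8. It was at 132 and 141 CPM in siMRG15, 166 and 159.8 in siMRGX, and 204 and 216 in siTIP60. The siMRGBP and siBRD8 groups lay above all others, at 1.03 ± 0.07 (adjusted p = 1.02e-07) and 0.77 ± 0.07 (adjusted p = 1.98e-06). INHBE, a subunit of activin E, was at 3.48 and 3.17 CPM in siLuc and 6.32 and 5.86 in siTIP60 (0.71 ± 0.10, adjusted p = 2.71e-05). INHBC passed the test only in siTIP60, from 0.456 and 0.595 to 1.16 and 1.37 CPM (0.57 ± 0.10, adjusted p = 0.000162).

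Of the 7 receptor genes, 5 were lower and 1 higher in siMRG15, 3 and 1 in siMRGX, 2 and 3 in siMRGBP, 3 and 2 in siBRD8, and 4 and 2 in siTIP60. The shares of all genes were 35.8% lower and 33.5% higher in siMRG15, 40% and 28.2% in siMRGX, 32.9% and 32.1% in siMRGBP, 25.9% and 28.3% in siBRD8, and 37.7% and 41.1% in siTIP60. TGFBR2, the type II TGF-beta receptor, was at 331 and 377 CPM in siLuc and 101 and 94.7 in siMRG15, a fall of 72.3% (-1.84 ± 0.08, adjusted p = 1.51e-09). It was at 356 and 345 CPM in siMRGX, 336 and 297 in siMRGBP, 205 and 200.01 in siBRD8, and 187 and 203 in siTIP60. The siMRG15 libraries lay below all others, siMRGX and siMRGBP overlapped siLuc, and siBRD8 and siTIP60 lay between. Directly compared, siMRG15 was below siMRGX by 1.83 ± 0.08 on the log2 scale (adjusted p = 7.03e-10). TGFBR1, the type I partner (ALK5), was at 51.6 and 59.8 CPM in siLuc, 28.9 and 29.0 in siMRG15 and 33.2 and 31.1 in siMRGX (-0.92 ± 0.07 and -0.77 ± 0.07, adjusted p up to 1.11e-06). In siMRGBP it was at 67.5 and 70.3 CPM (0.30 ± 0.07, adjusted p = 0.00285).

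BMPR1A, the type I BMP receptor ALK3, was at 47.2 and 49.9 CPM in siLuc, 31.2 and 33.1 in siMRG15 and 25.7 and 26.9 in siTIP60. The differences were -0.58 ± 0.07 (adjusted p = 7.6e-06) and -0.86 ± 0.07 (adjusted p = 1.12e-07). In siMRGBP it was called higher, at 52.7 and 59.5 CPM (0.20 ± 0.07, adjusted p = 0.0204). This call was lost in 3 of 14 settings. These were the compared groups alone, without siLuc replicate 1 and without siMRGBP replicate 2. BMPR1B was called higher in all 5 knockdowns, and its siMRGBP call was lost in the settings given above. ACVR1C (ALK7), a receptor for nodal and some activins, was at 0.521 and 0.548 CPM in siLuc, 1.92 and 1.87 in siBRD8 and 2.02 and 2.03 in siTIP60 (0.92 ± 0.09 and 0.98 ± 0.09, adjusted p up to 4.39e-06). The other 3 groups stayed at 0.401 to 0.839 CPM and were not called.

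**Figure D5:**
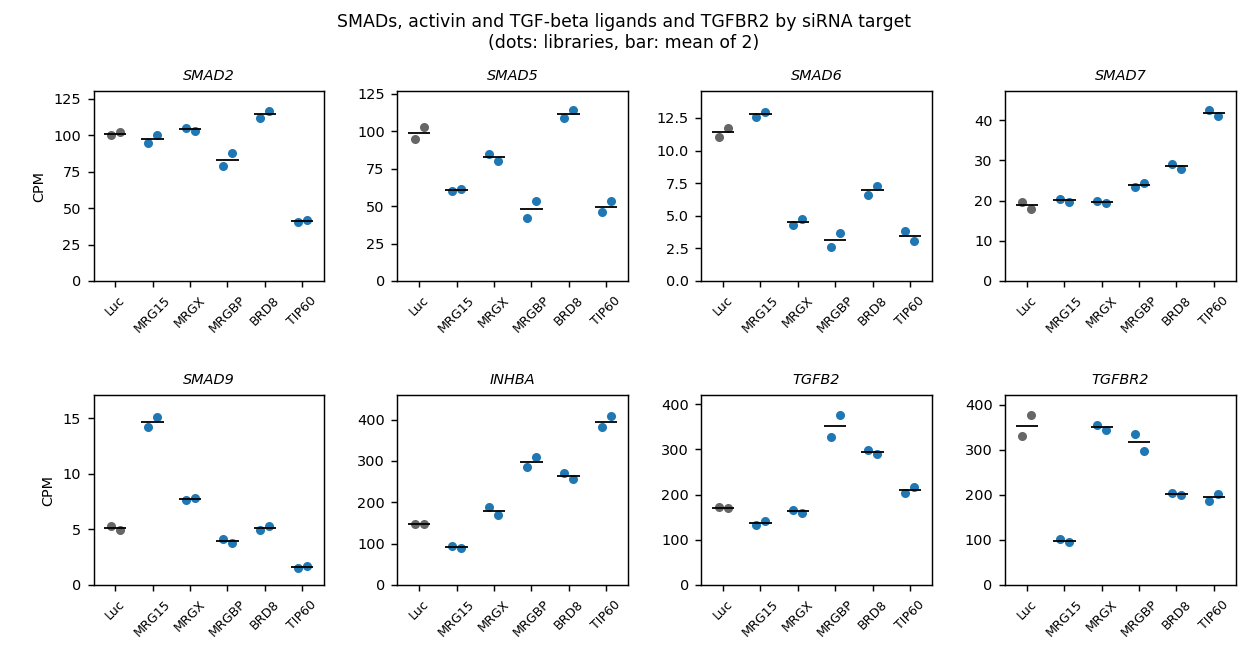
Level (CPM, linear axes from 0) of the 5 SMAD genes, INHBA, TGFB2 and TGFBR2 by siRNA target; dots are libraries and bars the mean of 2. SMAD9 is highest in siMRG15 (14.2 and 15.1 CPM) and lowest in siTIP60 (1.53 and 1.71 CPM), and SMAD7 is highest in siTIP60.

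SMAD6 and SMAD7, the inhibitory SMADs, moved apart. SMAD6 was at 11.1 and 11.7 CPM in siLuc, 12.6 and 13.0 in siMRG15, 4.26 and 4.73 in siMRGX, 2.58 and 3.64 in siMRGBP, 6.58 and 7.31 in siBRD8, and 3.84 and 3.10 in siTIP60. It was called lower in the last 4, at -1.17 ± 0.12, -1.60 ± 0.12, -0.64 ± 0.12 and -1.47 ± 0.12 (adjusted p from 1.38e-07 to 0.000614). SMAD7 was at 19.8 and 18.0 CPM in siLuc, 20.5 and 19.8 in siMRG15, 19.9 and 19.5 in siMRGX, 23.4 and 24.5 in siMRGBP, 29.2 and 27.9 in siBRD8, and 42.5 and 40.9 in siTIP60. It was called higher in the last 3, at 0.33 ± 0.07, 0.57 ± 0.07 and 1.10 ± 0.07 (adjusted p from 6.93e-09 to 0.000731). In siMRG15 and siMRGX it overlapped siLuc and was called higher only with TMM factors and, for siMRGX, also with median-of-ratios factors and DESeq2.

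SMAD9 (SMAD8), a receptor SMAD of the BMP branch, was at 5.31 and 4.97 CPM in siLuc, 14.2 and 15.1 in siMRG15, 7.64 and 7.86 in siMRGX, 4.10 and 3.81 in siMRGBP, 4.91 and 5.28 in siBRD8, and 1.53 and 1.71 in siTIP60. Groups lay on both sides of siLuc. The differences were 1.35 ± 0.08 in siMRG15 (adjusted p = 1.88e-08), 0.51 ± 0.08 in siMRGX, -0.31 ± 0.08 in siMRGBP and -1.23 ± 0.08 in siTIP60 (adjusted p = 1.91e-08). Between siMRG15 and siTIP60 it differed by 2.58 ± 0.08, the largest of the 6 named differences between those groups (adjusted p = 2.41e-11). SMAD5, another BMP SMAD, was at 94.6 and 102 CPM in siLuc, 60.2 and 61.3 in siMRG15, 42.2 and 53.2 in siMRGBP, and 45.7 and 53.6 in siTIP60 (-0.69 ± 0.10, -1.04 ± 0.10 and -0.98 ± 0.10, adjusted p up to 4.56e-05). Its call in siMRGX (-0.25 ± 0.10, adjusted p = 0.0381) was lost in 7 of 14 settings, among them both other scalings. SMAD2, which carries TGF-beta and activin signals, was at 99.7 and 102 CPM in siLuc and 40.4 and 41.7 in siTIP60, a fall of 59.3% (-1.28 ± 0.06, adjusted p = 1.41e-09). It was at 78.9 and 87.4 CPM in siMRGBP (-0.28 ± 0.06, adjusted p = 0.00201). Its call in siBRD8 (0.18 ± 0.06, adjusted p = 0.031) was lost in 4 of 14 settings. These were no intensity trend, without siLuc replicate 1 and without either siBRD8 library.

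Of 29 further BMP and TGF-beta target genes listed, 19 were in the table. In siMRG15 5 were higher and 11 lower, in siMRGX 2 and 11, in siMRGBP 7 and 10, in siBRD8 7 and 5, and in siTIP60 8 and 7. Of all genes 33.5% were higher and 35.8% lower in siMRG15, 28.2% and 40% in siMRGX, 32.1% and 32.9% in siMRGBP, 28.3% and 25.9% in siBRD8, and 41.1% and 37.7% in siTIP60. The ID genes, direct targets of BMP SMADs, were lower in siMRGBP and siTIP60. ID1 had differences of -1.79 and -1.68 there, ID2 -1.57 and -1.27, ID3 -1.36 and -2.13, and ID4 -1.43 and -0.97, all called. In siMRG15 ID2, ID3 and ID4 were called higher, at 0.32, 0.55 and 0.68, and ID1 was at 0.04. Among TGF-beta target genes, CTGF, which encodes a matricellular protein, was at -1.74 in siMRG15 and 0.72 in siMRGBP, both called. COL3A1, a fibrillar collagen, was lower in all groups, from -0.97 in siMRG15 to -1.95 in siMRGX.

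Of 60 other BMP and TGF-beta components 28 were in the table, with 8 higher and 15 lower in siMRG15, 8 and 15 in siMRGX, 9 and 15 in siMRGBP, 6 and 12 in siBRD8, and 10 and 12 in siTIP60. Over all genes the shares were 28.2% to 41.1% higher and 25.9% to 40% lower, as listed for the target genes. PMEPA1 and LTBP2 stand in this list and among the targets. FSTL1, a secreted follistatin-like protein, was at -2.02 in siMRG15 and -2.37 in siTIP60. GDF11, a ligand that acts through activin receptors, was lower in every group, from -0.48 in siBRD8 to -1.51 in siMRGX. RGMA, a BMP co-receptor, was at 1.46 in siMRG15 and -1.35 in siMRGX, both called.

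Of the other LRP genes, LRP11 was at 16.7 and 17.0 CPM in siLuc and 4.31 and 4.81 in siMRG15 (-1.68 ± 0.08, adjusted p = 3.91e-09), below every other library. LRP8, a receptor for reelin and apolipoprotein E, was at 55.8 and 51.3 CPM in siLuc, 18.0 and 18.8 in siMRG15, 25.1 and 23.9 in siBRD8 and 23.9 and 25.7 in siTIP60 (-1.49 ± 0.07, -1.10 ± 0.07 and -1.08 ± 0.07). In siMRGX it was called higher at 65.2 and 64.9 CPM (0.28 ± 0.07, adjusted p = 0.00331). LRP12 fell from 86.8 and 93.7 CPM in siLuc to 35.8 and 37.8 in siMRG15 (-1.27 ± 0.06, adjusted p = 4.49e-09). LRP4, the agrin and sclerostin receptor, fell from 24.6 and 20.1 CPM to 8.48 and 8.40 in siTIP60 (-1.30 ± 0.09, adjusted p = 2.12e-08). LRP3 was called higher in siMRG15 (0.87 ± 0.13), siMRGX (0.34) and siBRD8 (0.39). The last 2 calls were each lost in 4 of 14 settings. These were the compared groups alone, without siLuc replicate 2 and without either library of the knockdown. LRP2BP, named for a protein that binds LRP2 and not itself an LRP receptor gene, passed the test only in siTIP60 (-0.44 ± 0.11, adjusted p = 0.00339). Its level there was 0.631 and 0.548 CPM, from 1.05 and 1.25 in siLuc.

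TGFBI, an extracellular matrix protein induced by TGF-beta, was at 73.6 and 93.5 CPM in siLuc, 123 and 111 in siMRGBP and 256 and 254 in siTIP60. The siTIP60 libraries stood above all others (1.61 ± 0.09, adjusted p = 6.4e-09). TGFB1I1 (Hic-5), a focal adhesion protein, was at 39.2 and 37.7 CPM in siLuc, 104 and 98.4 in siMRGBP and 23.2 and 22.3 in siBRD8. These subunits of the same complex thus lay on opposite sides of siLuc, at 1.37 ± 0.06 (adjusted p = 1.72e-09) and -0.73 ± 0.06 (adjusted p = 5.07e-07), and differed by 2.103 ± 0.06 (adjusted p = 2.23e-10). BMP2K, a kinase named for its induction by BMP2, was at 30.3 and 31.2 CPM in siLuc and 12.1 and 13.3 in siTIP60 (-1.21 ± 0.07, adjusted p = 4.76e-09).

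Among the antisense RNAs, INHBA-AS1 rose from 0.703 and 0.478 CPM in siLuc to 2.99 and 2.57 in siTIP60 (1.25 ± 0.15, adjusted p = 4.48e-06), and was also called higher in siMRGX and siBRD8. LRP4-AS1, at 0.781 and 1.00 CPM in siLuc, was called lower in 4 knockdowns, whose libraries lay at 0.288 to 0.515 CPM. WNT5A-AS1 was called lower in 3, and ACVR2B-AS1 was called higher in siMRG15 (0.65 ± 0.12, adjusted p = 0.000309). Whether strand was used in counting is not given in the sources used here, so reads of these genes and of their partners cannot be told apart.

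The knockdowns were also compared with each other. These differences use no siLuc level, but the siLuc libraries enter the standard errors and adjusted p through the common fit. With the compared groups alone, the share of genes called went from 64.2% to 75.1% between siMRGX and siBRD8 and from 67.9% to 75.4% between siMRG15 and siBRD8. It fell in the comparisons with siMRGBP, such as from 61.9% to 59.6% with siBRD8 and from 74.4% to 70.7% with siTIP60. That setting leaves out the other knockdowns as well as siLuc. Between siMRG15 and siMRGX, 41 members were called, 27 higher in siMRG15 and 14 lower, where 74.5% of the table was called, 40.8% higher and 33.6% lower. Under median-of-ratios scaling the share of higher genes among the table's calls went from 54.8% to 48.2%, and the members' split became 25 and 18. Besides KREMEN1 and BMP7, KREMEN2 was higher in siMRG15 by 1.47 ± 0.12 (adjusted p = 1.06e-07), and LRP8 and LRP11 were lower at -1.77 ± 0.07 and -1.67 ± 0.08. Between siMRG15 and siMRGBP 44 members were called, 22 in each direction, beside 76% of the table, 39.2% higher and 36.8% lower. SMAD6 was 1.76 ± 0.12 higher in siMRG15 (adjusted p = 3.19e-08) and BMP4 1.48 ± 0.08 higher (adjusted p = 3.09e-09). The comparison of siMRG15 with siBRD8 called 39, 17 higher and 22 lower, beside 67.9%, 32.8% higher and 35.2% lower, with TCF7L1 higher by 1.31 ± 0.08 and FZD8 at -1.34 ± 0.10. That of siMRG15 with siTIP60 called 51, 24 higher and 27 lower, beside 82.2%, 40.6% higher and 41.5% lower, with SFRP1 higher by 1.99 ± 0.07.

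Between siMRGX and siMRGBP 42 members were called, 15 higher and 27 lower, beside 71.1% of the table, 30.1% higher and 40.9% lower. Under median-of-ratios scaling the share of higher genes among the table's calls went from 42.4% to 50.7%, and the members' split became 19 and 24. TGFB1I1 was at -1.59 ± 0.06 and DKK3 at -1.08 ± 0.08 in this comparison. Between siMRGX and siBRD8 38 were called, 11 higher and 27 lower, beside 64.2%, 25% higher and 39.2% lower. Under median-of-ratios scaling the median over all genes shifted by 0.11 here, the share of higher genes among the table's calls from 39.0% to 51.5%, and the members to 13 higher and 26 lower. KREMEN2 (-1.59 ± 0.12) and FZD4 (-1.23 ± 0.08) were lower in siMRGX, and LRP8 (1.37 ± 0.07) and ACVR1 (0.99 ± 0.07) higher. Between siMRGX and siTIP60 51 were called, 19 higher and 32 lower, beside 83%, 34.3% higher and 48.8% lower. There the median over all genes shifted by 0.13 under TMM and by 0.14 under median-of-ratios scaling, and the members' split became 20 and 31 or 21 and 30.

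The knockdowns of MRGBP, BRD8 and TIP60 also differed from each other. Between siMRGBP and siBRD8 40 members were called, 19 higher and 21 lower, beside 61.9% of the table, 29% higher and 32.9% lower. All 5 SMAD genes were lower in siMRGBP than in siBRD8, SMAD5 by 1.21 ± 0.10 on the log2 scale (adjusted p = 4.04e-07), and BMP4 was lower by 1.25 ± 0.08. Between siMRGBP and siTIP60 43 were called, 18 higher and 25 lower, beside 74.4%, 34.8% higher and 39.6% lower, with FZD1 at -1.39 ± 0.09 and BMP2K at 1.17 ± 0.07. Between siBRD8 and siTIP60 41 were called, 19 higher and 22 lower, beside 76%, 35.5% higher and 40.4% lower, with SMAD2 at 1.45 ± 0.06 and WNT2B at -1.24 ± 0.09.

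The authors' deposited table of transcripts, which they named for splicing, holds marks of up or down for each knockdown and 25895 transcripts, without values. The rule behind a mark is not given in the sources used here. Of the members 50 were listed there, with 131 transcripts. In the authors' deposited table, 33 of these transcripts were marked down and 11 up in siMRG15 (25.2% and 8.4%), beside 13% and 7.29% of all transcripts. The authors' deposited table marked 24 down and 33 up in siTIP60 (18.3% and 25.2%), beside 17.9% and 20.1%. For siMRGX the authors' deposited table marked 19.8% of members' transcripts down and 4.58% up, beside 14.1% and 8.19%. For siMRGBP the authors' deposited table marked 9.16% down and 9.92% up, beside 5.83% and 9.99%, and for siBRD8 9.92% and 5.34%, beside 5.09% and 5.39%. These marks come from the same libraries and are not independent of the gene values. Of 100 pairs of a member and a knockdown with a mark, 92 had the direction of the gene's call, 5 had no gene call and 3 went against it. A mark on a transcript and a call on a whole gene may be different measures, so neither kind of pair tests the other.

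Of the 3, a transcript of ACVR1 was marked up in siTIP60 in the authors' deposited table, where the gene was lower. A transcript of BMPR1B was marked down in siTIP60, where the gene was higher. A transcript of LRP4 was marked down in siMRG15, where the gene was higher, a call lost without siLuc replicate 2. Among 16 family genes listed only there, TCF7L2, the main TCF factor of many tissues, had 4 transcripts, of which the authors' deposited table marked 1 up and 1 down in siMRG15 and 1 up and 2 down in siMRGX. Of the 14 transcripts of LRP8, the authors' deposited table marked 10 down in siMRG15, 7 in siBRD8 and 4 in siTIP60, and 1 up in siMRGX.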

How the data were processed

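Poly(A) RNA was sequenced from 12 U2OS libraries in 6 groups of 2, and 4 ChIP-seq samples of the series were not analysed here. Expression values are CPM as deposited by the authors, and reads divided back from them were whole for every library within a tolerance of 0.01 reads. In every library, siBRD8 replicate 1 and both siTIP60 libraries included, the size of a read rests on differences between neighbouring values. The transcript marks are the authors' deposited calls of another kind, without numbers. The submitters' processing notes list, without role or order, the build hg19 and the programs MACS2 2.0.10, Bowtie2 2.1.6, minimap2 2.17-r941 and featureCounts (Subread 2.0.0). Of 8813 rows, 5 repeated ones were removed.

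Log2(CPM + 1) of all 8808 genes was fitted with limma 3.58.1 (intensity trend, 6 group means, no block, 6 residual degrees of freedom) in R 4.3.3, and 15 comparisons were made, each adjusted by Benjamini-Hochberg with a threshold of 0.05. The code was tested on simulated data. TMM factors, median-of-ratios factors and the size factors of DESeq2 were computed from the 8808 selected genes alone. Alternatives were pseudocounts of 0.5 and 5, a mean of at least 5 CPM, TMM and median-of-ratios factors, a replicate block, no trend, the compared groups alone, edgeR 4.0.16 and DESeq2 1.42.0 on the recovered reads, each library left out, and members without names outside the pathways. On the recovered reads edgeR called 6142 genes in siMRG15, 6073 in siMRGX, 5674 in siMRGBP, 4906 in siBRD8 and 6954 in siTIP60, where limma called 6100, 6008, 5723, 4771 and 6940.

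Members and lists were chosen with earlier results of these data known. By the naming rule every member could be named, with errors and adjusted p for up to 10 members of largest change per knockdown, for members called alike in all 5, and for the 3 largest differences each way between knockdowns; other members given with a p, and the example genes of the lists, were chosen after their values were seen. RefSeq promoter windows of GRCh38.p14 were matched by symbol. Values of 1 listed target gene are not reported here.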

Additional observations from a re-analysis of the deposited data

How the results depend on the processing

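Every count of members called stayed within 1.5 times its value in all 225 alternatives over 15 comparisons. In most comparisons the count could not have risen past this limit even if every member had been called. Only a large loss of calls could have passed it there, so the limit says little about stability. Leaving out 1 library gave 36 to 39 members in siMRG15, 33 to 38 in siMRGX, 36 to 43 in siMRGBP, 30 to 35 in siBRD8 and 46 to 51 in siTIP60 against siLuc. Called in each of their settings were 34 of 40 members in siMRG15, 30 of 38 in siMRGX, 31 of 40 in siMRGBP, 27 of 36 in siBRD8 and 46 of 47 in siTIP60, and none was called in the opposite direction. A further tally took 80 named results, the members of largest change in each knockdown and those called alike in every knockdown. They were picked by these same values, so most of their calls were hard to lose. Of 1109 alternatives for them, 1091 kept direction and call, 18 lost the call and 0 reversed. All 18 were in BMP4 and WNT11 in siMRG15, WNT11 in siBRD8 and BMPR1B in siMRGBP. The tally leaves out other calls described above. Among these, BMP7 in siTIP60 was lost in 8 of 14 settings and SMAD5 in siMRGX in 7 of 14. Replicate numbers gave no common pairing of the libraries (correlations of deviations from -0.47 to 0.18 over 15 pairs of groups, median -0.02, 3 of them over 0.1). At the lowest value the deviations of the groups ran against each other. A block by replicate number does not remove this, and its source was not tested. With the replicate block 39, 38, 39, 35 and 46 members were called in the order above, and BMP4 in siMRG15 lost its call (adjusted p = 0.0583). On the recovered reads edgeR gave larger changes for genes at low levels, such as -2.32 for DKK2 in siMRG15, -2.95 for WNT11 in siMRGX and 1.82 for ACVR1C in siBRD8. The cause of the lost calls was not tested.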
